A study of Mus musculus with 18 samples.

Results

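The 55 genes described here encode parts of the sarcomere, the repeating contractile unit of striated muscle, together with their smooth muscle and non-muscle relatives. They were chosen by name from the annotation of the array: every probe set with a single gene symbol beginning Myh, Myl, Tnn, Tpm, Actn, Myom, Mybp or Myoz in its family's form, plus Mylpf, Tcap, Ttn and Neb. The rule used no measured value. It found 99 probe sets among 45037 that were not controls, and 55 genes among 18193. By textbook knowledge 13 of these genes were grouped as heart forms, 20 as skeletal forms, 5 as forms shared by heart and skeletal muscle, 15 as smooth muscle or non-muscle forms and 2 as others. The tropomyosin genes Tpm1 to Tpm4 were all placed with the smooth muscle or non-muscle forms, although Tpm1, Tpm2 and Tpm3 also serve striated muscle. A further 4 probe sets carried one of the names beside a second symbol, 2 of them for Myh7 and Myh6 together, and were not used.

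The samples were RNA of CD-1 mice, an outbred stock, on one type of Affymetrix mouse expression array. Embryonic liver was measured at 6 stages, 1 on each day from 10.5 to 14.5 days post conception (dpc) plus 1 at 16.5 dpc, each with 2 arrays, and normal liver of 10-week-old females with 2 arrays. The embryo from which the liver had been taken, called here the rest of the embryo, was measured on the first 3 of these days and at 14.5 dpc, with 1 array a stage. No group carried an engineered allele, each embryonic sample pooled at least 5 embryos, and livers were dissected free of surrounding tissue. The labels are not uniform: the age field of the later embryonic livers repeats 10.5 dpc, titles of the rest of the embryo say liver, and the protocol text of the adult samples describes liver surgery although their titles and source say baseline and normal, so groups follow titles and sources. The labels call the arrays of a stage biological replicates but do not tie them to litters. The p-values therefore cover only how these samples vary, which may be technical.

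In a sarcomere, thick filaments of myosin heavy chains (Myh) and light chains (Myl) pull on thin filaments of actin, tropomyosin (Tpm) and the calcium-sensing troponin complex of Tnnc, Tnni and Tnnt subunits. Titin (Ttn), myomesins (Myom), alpha-actinins (Actn), nebulin (Neb), telethonin (Tcap), myosin-binding proteins (Mybp) and calsarcins (Myoz) hold the array of filaments together. Many of these proteins have separate genes for heart, slow muscle, fast muscle or cells without sarcomeres, and some myosin chains have separate genes for atrium and ventricle. The embryonic heart also uses some slow skeletal forms. The fetal liver grows into the septum transversum next to the heart and has no striated muscle of its own.

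Values are intensities in arbitrary units, given for replicate 1 and then replicate 2 of a stage. The 14 liver arrays had medians of 69.7 to 79.5 and held 1216 to 1535 negative values each, whereas the 4 rest-of-embryo arrays had medians of 91.9 to 107 and 35 to 41 exact zeros. The 2 sets of values therefore have different forms, and every comparison between the tissues crosses them. For tests, values were raised to a floor of 24.8 and taken to log2. Replicate 1 of 10.5 dpc stood apart in its ratio of 3′ to 5′ Gapdh control signal, 2.82 against 0.74 to 0.89 on the other embryonic liver arrays. Without that array the calls of Myom1 and Tnnt1 between 10.5 and 11.5 dpc and of Mybph, Tpm1, Ttn and Myh10 between 10.5 and 16.5 dpc were lost, and the other members called in these comparisons stayed called. Albumin (Alb), the main secreted protein of hepatocytes, read 956 and 1541 at 10.5 dpc, 6433 and 6058 at 11.5 dpc, and 7464 to 8941 on all later liver arrays. No 2 arrays held identical values.

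RefSeq promoter sequences (build GRCm38.p6, 250 bases before to 50 after the first listed start) matched 46 of the 55 genes. Those below are shown because these genes carry the results. Myl7, Myl3, Tnnt2 and Tnnc1 are heart forms that fell in liver. In the next step all of them but Myl7 were called higher again, and Tnnc1 then stayed. Myl1 and Tnnt1 are 2 skeletal forms that rose in the rest of the embryo. Capitals mark matches on either strand to the letters CATTCC, bound by TEAD factors, to TATAAA, the TATA box, to the CArG box and to the MEF2 site.
Myl7 (chr11:5898733-5899032, minus strand): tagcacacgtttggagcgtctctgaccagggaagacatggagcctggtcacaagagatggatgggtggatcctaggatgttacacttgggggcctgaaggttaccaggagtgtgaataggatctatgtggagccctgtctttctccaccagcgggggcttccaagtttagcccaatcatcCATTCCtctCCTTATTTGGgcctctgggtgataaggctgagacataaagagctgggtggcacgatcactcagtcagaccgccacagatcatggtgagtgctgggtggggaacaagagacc
Myl3 (chr9:110763428-110763727, plus strand): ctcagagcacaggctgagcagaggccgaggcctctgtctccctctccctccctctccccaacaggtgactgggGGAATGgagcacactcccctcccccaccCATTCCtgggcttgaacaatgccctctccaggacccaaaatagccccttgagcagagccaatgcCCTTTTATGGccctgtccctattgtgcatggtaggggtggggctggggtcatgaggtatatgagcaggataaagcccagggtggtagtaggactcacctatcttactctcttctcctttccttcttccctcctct
Tnnt2 (chr1:135836084-135836383, plus strand): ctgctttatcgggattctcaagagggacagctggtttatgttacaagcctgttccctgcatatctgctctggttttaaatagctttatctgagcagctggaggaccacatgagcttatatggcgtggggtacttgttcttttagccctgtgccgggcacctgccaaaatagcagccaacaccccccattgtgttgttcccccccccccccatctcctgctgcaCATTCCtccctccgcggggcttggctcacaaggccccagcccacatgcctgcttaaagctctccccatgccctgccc
Tnnc1 (chr14:31208062-31208361, plus strand): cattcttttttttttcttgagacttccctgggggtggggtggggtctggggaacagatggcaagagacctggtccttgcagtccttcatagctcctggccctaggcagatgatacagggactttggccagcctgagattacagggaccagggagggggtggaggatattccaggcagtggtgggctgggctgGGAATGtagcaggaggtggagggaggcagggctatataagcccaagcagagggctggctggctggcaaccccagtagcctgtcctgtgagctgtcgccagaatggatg
Myl1 (chr1:66945007-66945306, minus strand): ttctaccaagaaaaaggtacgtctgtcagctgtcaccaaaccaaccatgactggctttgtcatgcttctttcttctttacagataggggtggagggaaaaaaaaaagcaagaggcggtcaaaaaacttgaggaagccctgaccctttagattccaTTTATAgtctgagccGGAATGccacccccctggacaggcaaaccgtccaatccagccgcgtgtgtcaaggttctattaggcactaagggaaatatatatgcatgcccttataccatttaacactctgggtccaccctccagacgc
Tnnt1 (chr7:4515926-4516225, minus strand): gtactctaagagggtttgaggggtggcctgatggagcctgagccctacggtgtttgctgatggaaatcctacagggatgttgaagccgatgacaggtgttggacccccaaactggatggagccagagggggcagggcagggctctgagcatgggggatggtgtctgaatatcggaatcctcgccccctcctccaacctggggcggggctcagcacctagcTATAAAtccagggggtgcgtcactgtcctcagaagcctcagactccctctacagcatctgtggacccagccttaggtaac
CATTCC, on one strand or the other, stood in 6 of 13 heart promoters (46.2%), 5 of 14 skeletal promoters (35.7%), 4 of 14 smooth muscle or non-muscle promoters (28.6%) and 14.6% of all 27025 promoters of this length. TATAAA stood in 8 of 14 skeletal promoters (57.1%), 1 of 13 heart promoters (7.69%) and 14.2% of all. The CArG box, the binding sequence of serum response factor, stood in 2 of 13 heart promoters (15.4%) and 1.57% of all, and the MEF2 site in 4 of 14 skeletal promoters (28.6%), 2 of 13 heart promoters (15.4%) and 3.26% of all. A TATAAA match can lie within a MEF2 site. CANNTG, the core letters bound by myogenic regulators, stood in 12 of 13 heart and 12 of 14 skeletal promoters and 72.1% of all, and AGATAA in 4 of 13 heart promoters, 0 of 14 skeletal promoters and 11.4% of all. These counts describe letters in a window and were not tested.

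**Figure D1:**
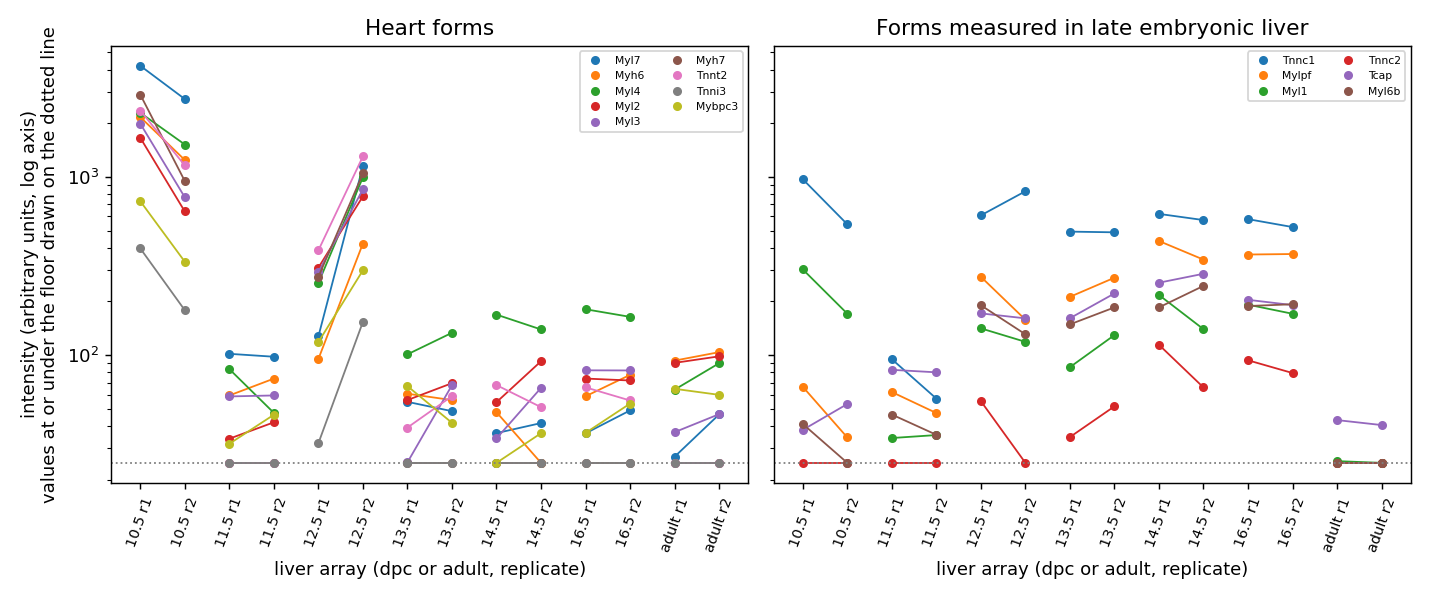
Intensity (log axis) of 9 heart forms, left, and of 6 forms measured in late embryonic liver, right, on each of the 14 liver arrays. Lines join the 2 replicates of a stage, and values at or under the floor of 24.8 lie on the dotted line. The 9 heart forms were high at 10.5 dpc, low at 11.5 dpc, higher again at 12.5 dpc, more so on replicate 2, and low afterwards.

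Transcripts of the heart sarcomere were abundant in liver samples of 10.5 dpc and fell sharply by 11.5 dpc. Of the 13 heart forms, 12 passed the filter on low values and 10 fell, with a median of -4.51 log2 over the 12 against 0 over all 14127 genes tested. The share of all genes called lower in this step was 2.69%, and 2.97% were called higher. All 10 stayed called without any 1 array. No heart form rose. Of the 5 shared striated forms 3 fell (median -1.72 log2), of 11 tested skeletal forms 3 fell (median -0.73 log2), and of 15 smooth muscle or non-muscle forms 1 fell (median -0.26 log2).

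The myosin chains fell together. Myl7, the regulatory light chain of atrial myosin, read 4203 and 2734 at 10.5 dpc, then 102 and 97.8 at 11.5 dpc (-5.09 log2, SE 0.75, adjusted p = 0.00156). Myh6, the alpha heavy chain that is the fast atrial and adult ventricular motor of the mouse, read 2165 and 1244 at 10.5 dpc, then 59.3 and 73.7 at 11.5 dpc (-4.63 log2, SE 0.57, adjusted p = 0.000607). Myh7, the beta heavy chain of embryonic ventricle and of slow muscle, read 2894 and 947 at 10.5 dpc, then 24.2 and -11.5 at 11.5 dpc. Both 11.5 dpc arrays lay under the floor, so Myh7 fell at least 66.7-fold (adjusted p = 0.000106). The ventricular light chain Myl2 read 1657 and 639 at 10.5 dpc, then 33.9 and 41.9 at 11.5 dpc (-4.77 log2, SE 0.48, adjusted p = 0.000171). The other ventricular chain, Myl3, fell by 4.39 log2, and Myl4, the essential light chain of atrium and of embryonic muscle, fell by 4.89 log2. For each of these 6 chains the lower 10.5 dpc array was above the higher 11.5 dpc array. With 2 arrays a group this was also so for genes not called, such as the actin-capping Capzb at -0.11 log2 and Hba-x at -0.15 log2. It therefore does not set these chains apart.

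The regulatory proteins of the thin filament fell with them. Tnnt2, which ties the heart troponin complex to tropomyosin, read 2358 and 1159 at 10.5 dpc, then 17.9 and 18.8 at 11.5 dpc and fell at least 66.6-fold. Tnni3, the inhibitory subunit of the mature heart, read 397 and 178 at 10.5 dpc, then -2.20 and -7.49 at 11.5 dpc and fell at least 10.7-fold. Tnnc1, the calcium sensor of heart and slow muscle, fell less far, from 971 and 542 at 10.5 dpc to 94.8 and 57.0 at 11.5 dpc (-3.30 log2, SE 0.28, adjusted p = 6.56e-05). The heart myosin-binding protein Mybpc3 read 730.2 and 334 at 10.5 dpc, then 31.8 and 46.2 at 11.5 dpc (-3.69 log2, SE 0.48, adjusted p = 0.000822). In all 4 the groups did not overlap. That also held for genes not called, such as Ckmt2 at -0.23 log2, and does not set these 4 apart. Mybphl, a myosin-binding protein of the atrium, stayed at 138 to 376 on all embryonic liver arrays and the calsarcin Myoz2 at 39.6 to 123, with no change called. Myh7b did not pass the filter in liver.

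Of the forms shared by striated muscles Actn2, Myom1 and Ttn fell, whereas Myom2 and Tcap did not, and 3 skeletal forms fell, Tnni1, Myl1 and Tnnt1. Actn2, the alpha-actinin of the Z line, read 394 and 205 at 10.5 dpc, then 20.5 and 14.8 at 11.5 dpc and fell at least 11.5-fold. Myom1, which crosslinks myosin at the M line, read 587 and 402 at 10.5 dpc, then 96.0 and 93.0 at 11.5 dpc (-2.36 log2, SE 0.51, adjusted p = 0.0113), and titin, the elastic filament, 399 and 240.3 at 10.5 dpc, then 101 and 87.8 at 11.5 dpc (-1.72 log2, SE 0.24, adjusted p = 0.00129). The Myom1 call was lost without replicate 1 of 10.5 dpc or without either 11.5 dpc array, and the titin call when its probe sets were averaged. Tnni1, the slow skeletal inhibitory troponin that the embryonic heart also uses, read 1232 and 878 at 10.5 dpc, then 71.9 and 73.9 at 11.5 dpc (-3.84 log2, SE 0.43, adjusted p = 0.000386). Myl1, the alkali light chain of fast muscle, also fell, from 303 and 171 at 10.5 dpc to 34.2 and 35.6 at 11.5 dpc (-2.70 log2, SE 0.30, adjusted p = 0.000331). Of 20 skeletal forms 11 passed the filter, and the third to fall, Tnnt1, is a slow troponin (-1.25 log2, SE 0.25, adjusted p = 0.00777). Tnnt1 lost its call without replicate 1 of 10.5 dpc or replicate 2 of 11.5 dpc.

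Markers of other tissues moved in the same step. Of 14 heart genes outside the rule that were tested 8 fell, among them the atrial peptide Nppa, from 1582 and 965 at 10.5 dpc to 7.98 and 1.68 at 11.5 dpc, and the muscle LIM protein Csrp3, from 998 and 568 at 10.5 dpc to 18.4 and 21.6 at 11.5 dpc. Of 18 further sarcomere partners 8 fell, led by the cardiac actin Actc1, from 6147 and 5044 at 10.5 dpc to 94.1 and 107 at 11.5 dpc (-5.80 log2, SE 0.32, adjusted p = 3.91e-06). Also lower were 3 of 6 smooth muscle genes, 3 of 6 genes of septum transversum and mesothelium and 3 of 8 neural genes, while 1 of 9 skeletal muscle genes outside the rule fell and 3 of 5 liver genes rose. The summed intensity of the 8 septum and mesothelium genes ran from 468 to 1854 over the embryonic liver arrays, against 4104 to 5547 in the rest of the embryo. That of the 8 neural genes ran from 909 to 2604, against 22331 to 28826. Without the 10.5 dpc array of high 3′ to 5′ ratio all 10 heart forms were still called lower. The part of these tissues in the fall was not tested, and in whole-tissue RNA fewer cells of a type and less RNA per cell cannot be told apart.

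At 12.5 dpc heart forms were measured again, unevenly between the 2 arrays. Of the 12 tested, 7 rose from 11.5 dpc and none fell. The median over the 12 was 2.65 log2 against 0.01 over all genes, of which 2.68% were called higher and 0.276% lower. Myh7 read 275 and 1045 at 12.5 dpc and rose at least 21.6-fold, and Tnnt2 read 387 and 1303 at 12.5 dpc and rose at least 28.6-fold. Both lay at or under the floor on both 11.5 dpc arrays. Myl2 read 309.5 and 778 at 12.5 dpc (3.70 log2, SE 0.48, adjusted p = 0.00111) and Myl4 254 and 995 at 12.5 dpc (3.00 log2, SE 0.52, adjusted p = 0.00684). Myl3 and Mybpc3 rose by 3.08 and 2.29 log2. Tnnc1 rose by 3.27 log2 and was the form in which the 2 arrays were closest, 608 and 830.4 at 12.5 dpc, among those called. Myl7, Myh6 and Tnni3 were not called, with Myl7 at 127 and 1149 at 12.5 dpc and Myh6 at 95.0 and 423 at 12.5 dpc. Of the 45 members tested 14 rose in all, and 8 without replicate 2 of 11.5 dpc, which left 4 heart forms and 2 skeletal forms, Myl1 and Tnnt1, called.

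**Figure D2:**
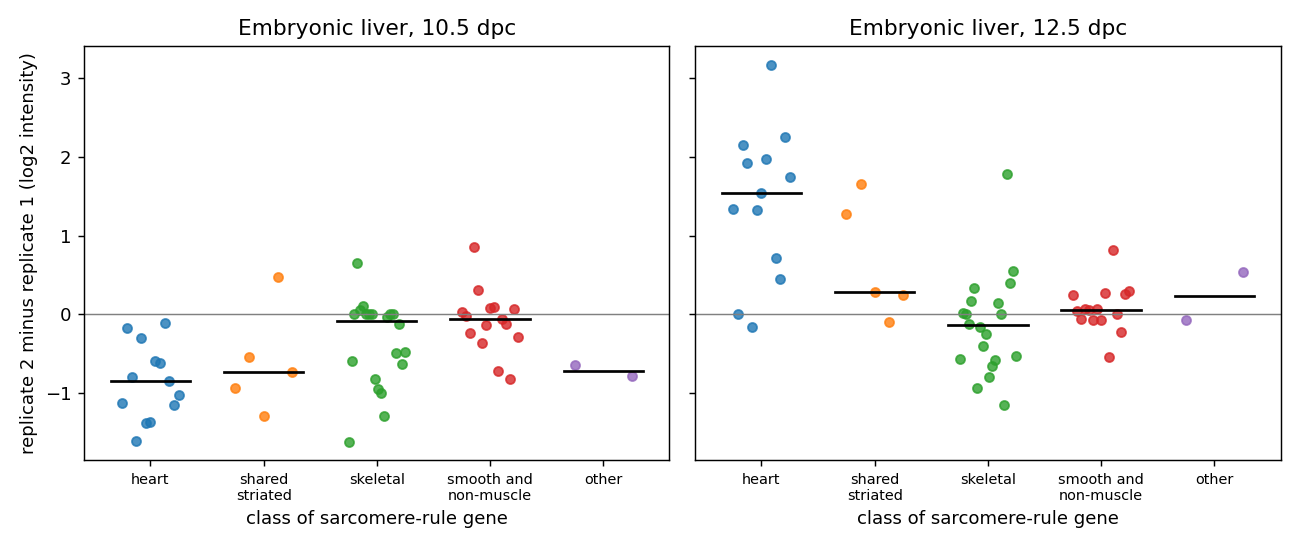
Difference between the 2 arrays of one stage, replicate 2 minus replicate 1, in log2 intensity with the floor applied, for each gene (points) by class, with class medians (bars), at 10.5 dpc (left) and 12.5 dpc (right). The heart forms had medians of -0.84 at 10.5 dpc and 1.54 at 12.5 dpc, and those of smooth muscle and non-muscle lay near 0 at both stages.

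The 2 arrays of 12.5 dpc differed in most heart forms and in some forms of other classes. Replicate 2 was above replicate 1 in 12 of 13 heart forms, with a median difference of 1.54 log2 and a highest of 3.17 log2 for Myl7. For the 20 skeletal forms the median difference was -0.14 log2, and for the 15 smooth muscle and non-muscle forms 0.05 log2. Of the 5 shared forms 4 were higher on replicate 2 (median 0.28 log2), with Myom1 at 1.65 and Actn2 at 1.27 log2, and so were the slow skeletal Tnni1 by 1.78 and the smooth muscle Myl9 by 0.82 log2. Set against the 10.5 dpc mean, Myl7 stood at 3.67% and 33.1% on the 2 arrays, Myh6 at 5.57% and 24.8%, Myl2 at 27.0% and 67.7%, and Tnnt2 at 22.0% and 74.1%. Atrial markers differed on replicate 2, with Myl4 at 52.2%, close to the ventricular Myh7 at 54.4%, and the atrial peptide Nppa at 82.4%. On replicate 1 Nppa lay between Myl4 at 13.3% and Myh7 at 14.3%. Mybphl stood at 87.4% and 87.9% on the 2 arrays, but no earlier fall had been called for it. The 10.5 dpc mean takes in replicate 1 of that stage, the array of high 3′ to 5′ Gapdh ratio. There, replicate 2 minus replicate 1 was -1.61 log2 for Myh7, -0.59 for Myl4 and -0.71 for Nppa. These percentages and their order therefore depend on that array. Each stage has 2 arrays, so no test of this order was made.

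Other markers differed between these 2 arrays too. Nppa read 178 and 1050.0 at 12.5 dpc, and the embryonic globins of primitive red cells were also higher on replicate 2, Hbb-bh1 at 686 and 2043 at 12.5 dpc and Hba-x at 3557 and 6680.2 at 12.5 dpc. The fetuin gene Ahsg, a hepatocyte product, was lower there, 1083 and 709.7 at 12.5 dpc. At 10.5 dpc the order was the other way, with replicate 2 below replicate 1 in 13 of 13 heart forms by a median of 0.84 log2, and replicate 1 was the array with the Gapdh ratio of 2.82. Their part in these differences was not tested. From 11.5 to 12.5 dpc 2 of 14 heart genes outside the rule rose, as did 5 of 18 sarcomere partners, 2 of 6 smooth muscle genes, 1 of 6 septum and mesothelium genes, 1 of 8 neural genes and 1 of 5 liver genes, while 1 of 3 embryonic globins fell. Of the 4 atrial markers 2 rose (Myl4 and Nppa), and of the 4 ventricular markers 3 (Myl2, Myl3 and Myh7); in the step before, 3 of 4 atrial and 4 of 4 ventricular markers had fallen.

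From 13.5 dpc on, most heart forms lay near background. From 12.5 to 13.5 dpc 2 of 45 members fell, Myh7 at least 21.6-fold and Tnnt2 by 3.89 log2 (adjusted p = 0.046 and 0.046), against 0.0637% of all genes called lower. Neither call was stable: 0 members were left with arrays centred on their medians, without the filter or with replicate number as a block, and 12, of which 8 were heart forms, without replicate 1 of 12.5 dpc. No member was called in either later step with limma, where 0.0566% and 0.0354% of all genes were called in either direction and 684 and 882 of all genes had an unadjusted p under 0.05. The heart-form median was 54.4 to 62.7 on the 6 arrays from 13.5 to 16.5 dpc.

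Of the heart forms Tnnc1, Mybphl and Myl4 stayed higher over these 6 arrays. Mybphl, whose signal was higher in liver than in the rest of the embryo, read 138 to 376 and Myl4 101 to 181. Tnnc1 was the highest of them and read 493 and 489 at 13.5 dpc, 619.8 and 572 at 14.5 dpc, then 579 and 523 at 16.5 dpc, with little spread between arrays, and at 16.5 dpc was 2.90 log2 above 11.5 dpc (SE 0.28, adjusted p = 7.74e-05). Over the same arrays its partners in the heart troponin complex stayed low, Tnnt2 at 39.2 to 67.8 and Tnni3 under the floor throughout. Cardiac actin showed a similar course outside the rule, with Actc1 at 434 and 644 at 13.5 dpc, 898 and 621 at 14.5 dpc, then 798 and 782 at 16.5 dpc. Tmod1, which caps thin filaments and also the actin of the red cell membrane, read 363 to 416 over these 6 arrays. In adult liver Tnnc1 read 18.3 and 12.2 and fell at least 22.2-fold from 16.5 dpc (adjusted p = 2.5e-07).

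Of the 11 skeletal forms tested 4 rose from 11.5 to 12.5 dpc, the fast light chains Mylpf and Myl1 and the slow troponins Tnni1 and Tnnt1, where 2.68% of all genes were called higher. The fast forms Actn3, Tnni2, Myoz1 and Tnnc2 were not called in this step. Mylpf, the regulatory light chain of fast muscle, read 62.0 and 47.3 at 11.5 dpc, 275 and 158 at 12.5, 437 and 343 at 14.5, then 367 and 369 at 16.5 dpc. It rose by 1.94 log2 from 11.5 to 12.5 dpc (adjusted p = 0.00574), a call lost without replicate 1 of 12.5 dpc or replicate 2 of 11.5 dpc, and was 2.76 log2 higher at 16.5 than at 11.5 dpc (adjusted p = 0.000219). Unlike 12 of 13 heart forms it was lower on replicate 2 of 12.5 dpc than on replicate 1. Myl1 read 141 and 119 at 12.5 dpc, 217 and 139.7 at 14.5 dpc, then 192 and 170.5 at 16.5 dpc and Tnnc2, the calcium sensor of fast muscle, 55.1 and 22.7 at 12.5 dpc, 114 and 65.8 at 14.5 dpc, then 93.5 and 79.3 at 16.5 dpc. Both 11.5 dpc arrays of Tnnc2 and replicate 2 of 12.5 dpc lay under the floor, and at 16.5 dpc it was at least 3.47-fold higher (adjusted p = 0.00549). The embryonic and perinatal heavy chains, Myh3 and Myh8, read 76.4 and 70.5 for Myh3 and 67.4 and 48.4 for Myh8 at 16.5 dpc and did not pass the filter in liver.

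Markers of skeletal muscle cells outside the rule ranged from under the floor to well above it on the same arrays. Myod1, a regulator that starts the myogenic programme, read 14.3 to 35.2 over the 12 embryonic liver arrays and 102 to 474 in the rest of the embryo. Its relative Myf5 read 1.69 to 24.6 and 108 to 311, and Pax7, of muscle precursors, 2.74 to 34.4 and 179.6 to 270.5. Others were higher, with the skeletal actin Acta1 at 239 to 678, the calcium store protein Casq1 at 277 to 669.8 and Pax3, also of muscle precursors, at 158 to 305 in embryonic liver, against 611 to 9599, 109 to 688 and 149.5 to 460.4 in the rest of the embryo. Of the 18 genes of this marker list 9 passed the filter in liver, and none rose from 11.5 to 12.5 dpc. The summed intensity of the list ran from 1289 to 2171 over the embryonic liver arrays and from 2685 to 17466 in the rest of the embryo.

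Telethonin and one light chain also rose in embryonic liver. Tcap, which anchors titin at the Z line, read 38.0 and 53.1 at 10.5 dpc, 82.6 and 80.0 at 11.5, 171 and 161 at 12.5, 255 and 286 at 14.5, then 204 and 191 at 16.5 dpc, and was 1.28 log2 higher at 16.5 than at 11.5 dpc (adjusted p = 0.00115). Its step from 11.5 to 12.5 dpc (1.03 log2, SE 0.20, adjusted p = 0.0115) was not called with arrays centred or quantile-normalized, nor without either 11.5 dpc array or replicate 1 of 12.5 dpc. Myl6b, an alkali light chain of slow muscle and non-muscle cells, read 46.4 and 35.7 at 11.5 dpc, 190.3 and 131 at 12.5 dpc, then 188 and 193 at 16.5 dpc (1.96 log2, SE 0.27, adjusted p = 0.00186 for 12.5 against 11.5 dpc). In the rest of the embryo Tcap read 106, 100.0, 112 and 234 at the 4 stages and Myl6b 36.3, 35.6, 47.2 and 38.5. At 14.5 dpc, liver Tcap stood at 109% and 122% of that tissue's value, against 4.57% and 3.59% for Mylpf and 12.3% and 11.4% for Tnnc1.

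Across the whole embryonic course, 16.5 against 10.5 dpc, 5 of the 45 tested members rose and 17 fell, where 10.4% and 6.98% of all genes were called. Those that rose were Mylpf (2.94 log2), Myl6b (2.58 log2, with 1 of 2 arrays of 10.5 dpc at the floor), Tcap (2.14 log2), Tnnc2, at least 3.47-fold, and Mybph, a skeletal relative of the myosin-binding proteins (1.02 log2). The call of Mybph was lost with arrays centred or quantile-normalized and without replicate 1 of either stage, and that of Tnnc2 with the floor at the 40th percentile. Of the 17 that fell 9 were heart forms, from -6.33 log2 for Myl7 to -3.42 log2 for Tnni3, the latter bounded by the floor. With 11.5 dpc as the early stage 7 members were called, where 6.22% of all genes were called higher and 2.54% lower, and no heart form fell: Tnnc1, Myl1, Mylpf, Tnnc2, Myl6b and Tcap were higher and Tpm4 lower.

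Correlations over the 12 embryonic liver arrays describe how closely each member followed the heart forms, with arrays sharing stages and dissections. Set against the mean log2 of the heart forms without the gene itself, Myh7, Myl2, Tnnt2, Tnni3, Myl4, Mybpc3 and Myl3 had Pearson r of 0.96 to 0.98, and Myh6 and Myl7 of 0.94 and 0.93. Tnnc1 had r = 0.49. Among forms not classed as heart, Tnni1 had r = 0.99, Actn2 and titin 0.94, Myom1 0.88 and Myl9, a smooth muscle light chain, 0.86. Mylpf, Tnnc2 and Tcap had r of -0.43, -0.48 and -0.60. Of 1603 genes outside the rule that spanned at least 2 log2, the 10 most alike were Csrp3, Nppa, Nebl, Unc45b and Cryab (each 0.99), Apobec2 (0.98), and Srl, Smpx, Rbm24 and Fabp3 (each 0.97).

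All 15 smooth muscle and non-muscle forms passed the filter in liver. From 10.5 to 16.5 dpc 4 of them fell and 1, Myl6b, rose (median -0.32 log2 over the 15). In the first step 1 of 15 was called from 10.5 to 11.5 dpc, Myl9 (-1.52 log2, SE 0.24, adjusted p = 0.00235), against 5.66% of all genes called in either direction. Myl9 read 1068 and 1022 at 10.5 dpc, 384 and 343 at 11.5, 422 and 748 at 12.5, then 189 and 196 at 16.5 dpc. Tpm4, a tropomyosin of the cytoskeleton, read 1737 and 1426 at 10.5 dpc, 963 and 1153 at 11.5, 557 and 581 at 14.5, then 432 and 384 at 16.5 dpc and fell by 1.95 log2 from 10.5 to 16.5 dpc (SE 0.15, adjusted p = 3.83e-06). Myh10, the non-muscle heavy chain IIB, fell by 1.02 log2 and Tpm1 by 1.06 log2, each close to the limit and not called without replicate 1 of 10.5 dpc. The ubiquitous light chains Myl12a and Myl12b differed by -0.50 and -0.32 log2, under the limit of 1 log2.

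Several forms of late embryonic liver were lower in the adult. Of 45 members 17 were lower than at 16.5 dpc and 1 higher, where 22.8% and 10.3% of all genes were called and the median over all genes was -0.24 log2. By class 8 of 15 smooth muscle or non-muscle forms, 4 of 11 skeletal, 2 of 12 heart, 2 of 5 shared and 1 of 2 other forms were lower. On each adult array 12 of 15 smooth muscle and non-muscle forms and 6 of 20 skeletal forms lay above the level used as the filter. Myh10 fell furthest, from 769.6 and 755 at 16.5 dpc to 34.6 and 20.7 in adult liver (-4.70 log2, SE 0.16, adjusted p = 2.57e-09, with 1 of 2 adult arrays at the floor). Mylpf fell at least 14.8-fold and Myl6b at least 7.68-fold, both under the floor in the adult. Tcap fell from 204 and 191 at 16.5 dpc to 43.1 and 40.5 in adult liver (-2.24 log2, SE 0.20, adjusted p = 3.11e-06). Of the other genes classed as smooth muscle or non-muscle forms Tpm3 and Tpm4 fell by 1.56 and 1.60 log2 and Myl12a by 1.34 log2. Myl9 fell by 1.49 log2, Tpm1 by 1.12 log2 and Actn4 by 1.07 log2. Tnnt2 fell at least 2.44-fold from a late embryonic level already near the floor (adjusted p = 0.0459), a call lost under 17 alternatives. The calls of Myl12a, Tpm1 and Actn4 were lost under quantile normalization. Myom3, an M-line protein of some fast and slow fibres, was the 1 member higher in the adult, 51.7 and 68.1 at 16.5 dpc, then 162 and 98.8 in adult liver (1.09 log2, SE 0.34, adjusted p = 0.0198), and not called without replicate 1 of either group.

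In the rest of the embryo many of these genes rose with stage. Of the 44 members tested there, 21 rose by at least 0.25 log2 per day and none fell, against 7.25% and 1.31% of all 12699 genes. By class 12 of 14 skeletal forms, 5 of 12 heart forms, 3 of 4 shared forms and 1 of 14 smooth muscle or non-muscle forms rose. The slope rests on 4 arrays, and without that of 14.5 dpc 7 members were called: Mylpf, Myl1, Myh3, Myh8, Tnnt1 and nebulin rose, Myl7 fell, and Tnnt3 and Myom3 no longer passed the filter. Without the filter on low values none was called, and with the spread taken over both tissues 11 were.

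The steepest slopes among members were those of Tnnt3, Myh8 and nebulin. Tnnt3, the fast troponin T, read 32.8, 51.4, 133 and 3653 at the 4 stages in order, a slope of 1.75 log2 per day (SE 0.17, adjusted p = 0.00316). Myh8, the perinatal heavy chain, read 39.4, 106, 284 and 4686 (1.73 log2 per day, adjusted p = 0.000482). Nebulin, which runs along the thin filament, read 33.6, 92.5, 214 and 1371 (1.33 log2 per day). The last array was the highest for all 3, and most of the gain in Tnnt3 lay between 12.5 and 14.5 dpc. Mylpf read 838, 1457, 2927 and 9552, a steadier course of 0.89 log2 per day (SE 0.035). Myl1 and the embryonic heavy chain Myh3 had slopes of 0.95 and 0.92, the fast Tnni2 and Tnnc2 1.20 and 1.06, and the slow forms Tnni1 and Tnnt1 0.65 and 0.60 log2 per day. The adult fast heavy chains Myh1, Myh2 and Myh4 stayed low there, with Myh2 the highest at 20.6 to 75.9.

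Heart forms in the rest of the embryo were mostly high from the first stage. Tnnt2 read 1821, 2145, 2313 and 5748 (0.42 log2 per day, adjusted p = 0.0104) and Tnnc1 1133, 1709, 2260.3 and 5027 (0.53 log2 per day). Myl7 read 2269, 1664, 1032 and 1072 and Myh6 1084, 659, 691 and 788, with no slope called. Myl2 read 2491, 2922, 2044 and 3266. Myoz2, the calsarcin of heart and slow muscle, was the heart form with the steepest slope, 37.7, 86.3, 125 and 1015 (1.17 log2 per day). Tnnc1, Myh7, Myl4, Tnnt2 and Myoz2, the 5 heart forms that rose, were each not called without the 14.5 dpc array. Skeletal markers outside the rule rose in 9 of 15 cases and fell in 1 on the same arrays, and sarcomere partners rose in 13 of 20. So did 3 of 4 liver genes, 2 of 4 smooth muscle genes, 2 of 13 heart genes outside the rule and 1 of 6 septum and mesothelium genes, while 3 of 3 embryonic globins and 1 of 8 neural genes fell. The part of tissue make-up in these slopes was not tested.

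**Figure D3:**
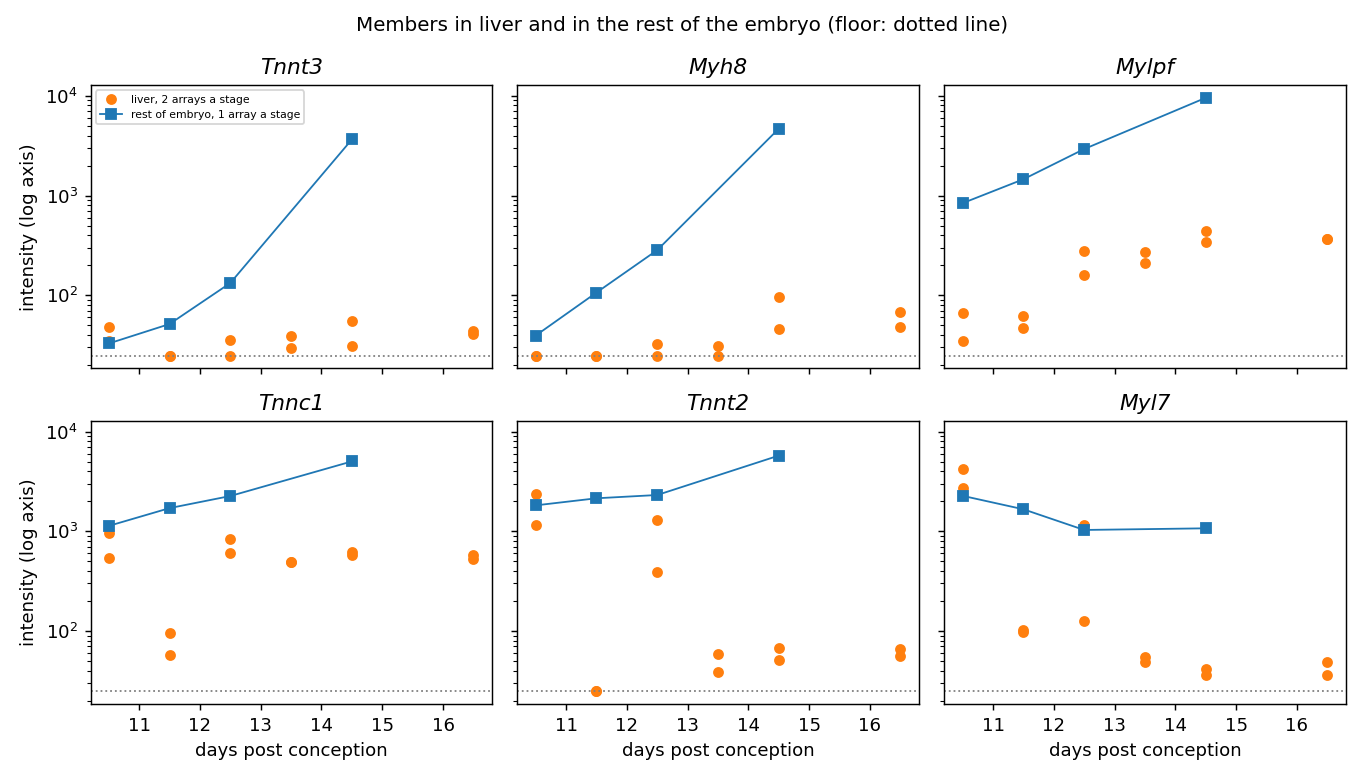
Intensity (log axis) of 6 members against days post conception, in liver (circles, 2 arrays a stage) and in the rest of the embryo (squares joined by lines, 1 array a stage), with the floor as a dotted line. The fast forms Tnnt3, Myh8 and Mylpf climbed in the rest of the embryo, while Myl7 in liver was above the level of the rest of the embryo at 10.5 dpc and on 1 array of 12.5 dpc.

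Set side by side at matched stages, the heart forms of liver were near the level of the rest of the embryo at 10.5 dpc and well below it at 11.5 and 14.5 dpc. At 10.5 dpc the 11 heart forms measurable there stood in liver at a median of 145% and 66.5% of the rest-of-embryo value on the 2 arrays. At 11.5 dpc the medians were 5.46% and 3.33%, at 12.5 dpc 17.1% and 64.9%, and at 14.5 dpc 3.46% and 3.39% for 12 forms. At 10.5 dpc Myl3 stood at 304% and 117% and the other ventricular light chain Myl2 at 66.5% and 25.7%. These percentages cross the 2 forms of values and depend on how each tissue's arrays were scaled.

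Over the 4 matched stages 32 of 50 members tested were lower in liver and 7 higher, where 51.2% and 14% of all 14896 genes were called and the median over all genes was -1.04 log2. The members' share is to be read against that shift. Quantile normalization brought the median of all genes to -0.14 log2 and left 13 members lower and 7 higher. Myh3 read -2.12 to 48.7 on the 8 liver arrays and 448, 858, 1684 and 5759.6 in the rest of the embryo (-5.46 log2, SE 0.35, adjusted p = 1.02e-07, with 5 liver arrays at the floor). Mylpf (-4.33 log2, SE 0.23, adjusted p = 2.89e-08) and Tnnc2 (-4.66 log2, with 5 liver arrays at the floor) followed. All 8 liver arrays of nebulin lay under the floor, and it was at least 7.0-fold lower. Of the heart forms 9 of 13 were lower under the values as deposited and 4 under quantile normalization. One probe set of a heart form, that of Mybphl, was higher in liver as deposited (2.57 log2, SE 0.27, adjusted p = 4.87e-06). Of the 4 rest-of-embryo arrays 2 lay at the floor for it. Of the skeletal forms the counts were 11 and 8 of 15.

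The change with stage differed between the tissues for 13 of 50 members, 12 steeper in the rest of the embryo and 1, Myl6b, steeper in liver. Of all genes 8.95% and 5.09% were called in these directions. The difference in slope was 1.70 log2 per day for Tnnt3 (SE 0.21, adjusted p = 0.000881), 1.36 for Myh8 and 1.33 for nebulin. Titin and Myom1, shared by both muscles, differed by 1.09 and 1.13 log2 per day. The call rests on the last stage: without the 14.5 dpc array of the rest of the embryo 1 member was left, nebulin, and Tnnt3 no longer passed the filter. Every liver array of nebulin in this test lay under the floor, so its liver slope was flat by construction. Its difference is therefore the slope in the rest of the embryo alone. Without the arrays of 10.5 and 12.5 dpc, in which liver held heart transcripts, 7 were left.

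Probe sets of one gene did not always agree, which limits what a name can carry. Of the 44 further probe sets 32 exceeded the filter on at least 2 arrays, and of these 17 correlated above 0.5 with the one used and 10 below 0. Among heart forms a second Myl4 probe set exceeded the filter on 14 of 18 arrays, with r = -0.57 to the one used. The Myl4 results are therefore given for the probe set used. The Mybpc1 probe set used read 1559 to 4038 on the embryonic liver arrays and 321, 314, 366 and 503 in the rest of the embryo (2.73 log2, higher in liver). A second one rose there to 1830.4 at 14.5 dpc, and the mean over probe sets reversed the difference to -0.62 log2. Myom2 likewise read 939.6 to 2750.3 in embryonic liver and 18.4, 4.82, 17.1 and 33.8 in the rest of the embryo, where another of its probe sets read 2.41, 21.2, 55.5 and 924. Actn3, the alpha-actinin of fast fibres, read 338 to 1491 in embryonic liver and 75.5, 64.1, 71.8 and 274 in the rest of the embryo. The direction of Mybpc1 and Myom2 between tissues is therefore given for the probe set and not for the gene. Myl10 and Tnni3k, a kinase that binds troponin I and no filament protein, had 1 usable probe set each and were higher in liver by 4.78 and 3.28 log2, with 2 of 4 arrays of Myl10 at the floor in the rest of the embryo.

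**Figure D4:**
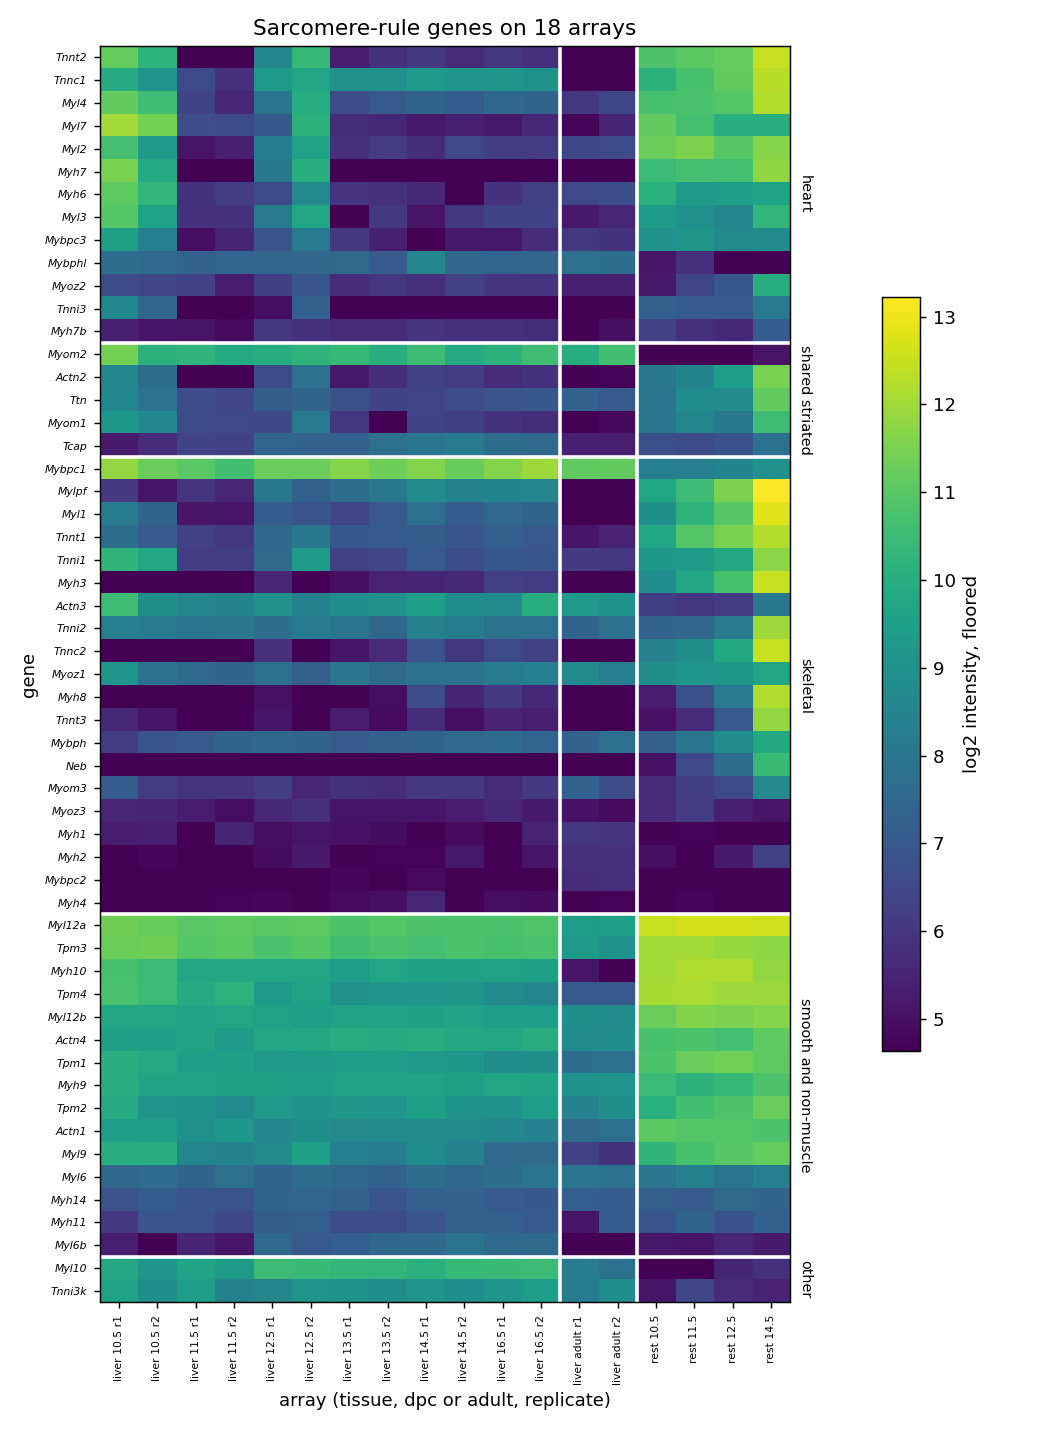
Log2 intensity, floored, of all 55 genes (rows, grouped by class and ordered by mean) on the 18 arrays (columns: embryonic liver, adult liver, rest of the embryo). Heart forms were bright at 10.5 and 12.5 dpc in liver and throughout the rest of the embryo, and skeletal forms brightened with stage in the rest of the embryo.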

How the data were processed

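Total RNA was hybridised to Affymetrix mouse expression arrays. The authors deposited 1 linear intensity per probe set and array; their summarisation and scaling are not stated in the labels. Of 45101 probe sets 64 controls were left out, and 34945, 932 and 9160 of the others had 1, several or no symbol in the platform annotation. Values were floored at 24.8 (the 20th percentile) and taken to log2. A gene was tested where it reached 77.9 on at least 2 arrays, with the probe set of highest mean. Groups were fitted in limma 3.58.1 (R 4.3.3) with a mean per group over the 14 liver arrays. Both tissue fits used the 12 arrays of the 4 matched stages. The difference between tissues was fitted with a separate level for each stage. The difference in course was fitted with a slope over days in each tissue. The rest of the embryo was fitted over its 4 arrays. P-values were adjusted by Benjamini-Hochberg over all genes tested, and a call needs an adjusted p under 0.05 and 1 log2, or 0.25 log2 per day. Values at the floor have no spread, so errors and p-values resting on them are too small, and a fold is a lower bound where both arrays lie there.

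The members, classes and marker lists were chosen with earlier results of these data known. Named genes were the called members with the largest differences in each class, up to 3 called genes of a list, and the 10 outside genes most alike over the 12 embryonic liver arrays. On simulated data the test of 11.5 against 10.5 dpc over 14130 genes recovered 85% of changes of 1.5 log2 and 98% of changes of 3 log2. With 2 arrays a group, their number limits the precision. Floors, scalings, filters, probe set choices, a replicate block and leaving out each array were tried as alternatives.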

Additional observations from a re-analysis of the deposited data

Results flagged for a closer look

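The change with stage differed between liver and the rest of the embryo by the interaction test in limma for 13 members. Of these 12 were steeper in the rest of the embryo and 1 in liver. Of all 14896 genes tested 8.95% and 5.09% were called in these directions. Each value is the slope in the rest of the embryo minus that in liver, in log2 per day, with 4 arrays against 8. Among skeletal forms the difference was 1.70 for Tnnt3, 1.36 for Myh8, 1.33 for Neb, 1.17 for Tnni2, 0.84 for Myom3, 0.67 for Myh3, 0.58 for Tnnc2 and 0.44 for Mybph. Among heart and shared forms it was 1.23 for Myoz2, 1.13 for Myom1 and 1.09 for Ttn. For the cytoskeletal Tpm4 it was 0.31, and for Myl6b, which rose in liver, -0.70. Without the 14.5 dpc array of the rest of the embryo 1 of these calls, that of Neb, was left. Every liver array of Neb lay under the floor, so its value is the slope in the rest of the embryo alone. For Myh3 and Tnnc2 most liver arrays lay at the floor.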

How the results depend on the processing

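Of the called members, 14 of 17 (11.5 against 10.5 dpc), 8 of 14 (12.5 against 11.5), 0 of 2 (13.5 against 12.5), 17 of 22 (16.5 against 10.5), 11 of 18 (adult), 16 of 39 (liver against the rest of the embryo), 1 of 13 (tissue difference in course) and 0 of 21 (rest of the embryo course) were tested and stayed called under every alternative run. Leaving out 1 array gave 15 to 24, 8 to 16, 0 to 12, 19 to 24, 15 to 20, 31 to 43, 1 to 14 and 7 to 23 calls for these comparisons, and 0 for both later liver steps. It gave 10 in each case for heart forms lower at 11.5 dpc, 4 to 10 for heart forms higher at 12.5 dpc, 0 to 8 for heart forms lower at 13.5 dpc, 2 to 4 for skeletal forms higher at 12.5 dpc and 6 to 12 for skeletal forms rising in the rest of the embryo. The lowest counts at 12.5 dpc came without replicate 2 of 11.5 dpc, the highest at 13.5 dpc without replicate 1 of 12.5 dpc, and the lowest of both course comparisons without the 14.5 dpc array of the rest of the embryo. The 2 calls of 13.5 against 12.5 dpc, both heart forms, became 1 with the higher floor or every probe set tested, 0 with arrays centred on their medians, 0 without the filter, 0 in a fit of all 18 arrays and 0 with a replicate block; quantile normalization gave 3. Replicate numbers did not pair the samples: over 21 pairs of groups the correlation of deviations ran from -0.35 to 0.25. Against 11.5 dpc instead of 10.5 dpc, 16.5 dpc had 7 called members instead of 22. Quantile normalization left 20 of 39 calls between the tissues, and turned Actn4 to 0.10 log2. The mean over probe sets turned Mybpc1 to -0.62 log2. The 21 slopes in the rest of the embryo, 12 of them skeletal, became 0 and 0 without the filter, and 11 with the slope of the 12-array fit. An alternative chosen after seeing the data, without the arrays of 10.5 and 12.5 dpc, left 7 of 13 differences in course. The causes were not tested.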
